A study of Mus musculus with 6 samples.

Results

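Mast cells are tissue-resident immune cells that store proteases, histamine and proteoglycans in granules and release them when antigen cross-links IgE on their surface. The genes described here are 10 mouse genes of this cell type: the chymase-family serine proteases Cma1, Cma2, Mcpt1, Mcpt2, Mcpt4 and Mcpt9, the tryptase Tpsb2, the carboxypeptidase Cpa3, the IgE receptor chain Fcer1a and the histamine-forming enzyme Hdc. All array probes whose RefSeq accession maps to these symbols were kept, which gave 11 probes of the 56605 non-control probes on the array, 1 per gene except for Hdc with 2. Of the 11 probes, 10 passed the filter on dim and marked spots, so that each of the 10 genes was represented among the 27916 features compared. The genes were chosen by their link to mast cells with the log2 differences between knockout and wild-type arrays, that of Cma2 first, already known. Every difference of a member gene between knockout and wild type is therefore a description, given without a test.

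RNA came from colonic epithelium of 3 male miR-31 knockout mice and 3 male wildtype mice, with 1 one-colour Agilent array per mouse. The cells were separated by flow, and the gate, the strain, the age of the mice, the way the knockout was made and any treatment are not given in these sources. miR-31 is a microRNA, a short RNA that represses messenger RNAs through its seed. Its mature strands are shown because their loss defines the knockout group (RefSeq, GRCm38.p6, minus strand of chromosome 4, seed of bases 2 to 8 in capitals).
mmu-miR-31-5p: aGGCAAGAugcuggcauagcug
mmu-miR-31-3p: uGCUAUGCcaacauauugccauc

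In mice, mast cells of the gut lining are known for Mcpt1 and Mcpt2, whereas those of the connective tissue store Mcpt4, Cma1 and the tryptase Tpsb2 with Cpa3. The chymase genes lie side by side on chromosome 14 and arose by duplication. In RNA of a whole cell population, fewer cells of a type and less RNA per cell cannot be told apart.

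Signal was taken as log2 of the processed intensity minus the 75th percentile of the array, which ranged from 3122 to 3539 on knockout arrays and from 3005 to 3352 on wild-type arrays. The share of spots well above background ran from 66.6% to 71.1% on knockout arrays and from 70.9% to 75.6% on wild-type arrays. Genotype and slide row cannot be told apart, since the knockout arrays lay in row 1 and the wild-type arrays in row 2. All 10 epithelial markers examined were well above background on all 6 arrays. Their summed signal, in multiples of the 75th percentile, was 124 to 141 on knockout arrays and 130 to 147 on wild-type arrays. This sum kept spots marked by the scanner software, and 5 of the 10 genes were marked too often to be tested.

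A set of 4 chymase genes and Cpa3 had more signal in knockout epithelium. These were Cma2, Mcpt1, Mcpt2 and Mcpt4, and their log2 changes, like that of Cpa3, lay between 2.10 and 2.82. Each was read by 1 probe. Probe sequences were not available, so binding of a probe to RNA of a related chymase gene could not be examined. Cma1, Mcpt9, Tpsb2 and the tested probe of Hdc overlapped between the groups, and Fcer1a had a smaller difference without overlap. Over all 33231 probes compared, 0.719% were at least 2-fold higher in knockout tissue with no overlap between groups, against 5 of the 10 member probes. A total of 6 member probes lay wholly above wild type and 0 wholly below, where 5.75% and 12.2% of all probes did so. Since the genes were chosen with this contrast known, nothing is read from these shares.

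**Figure D1:**
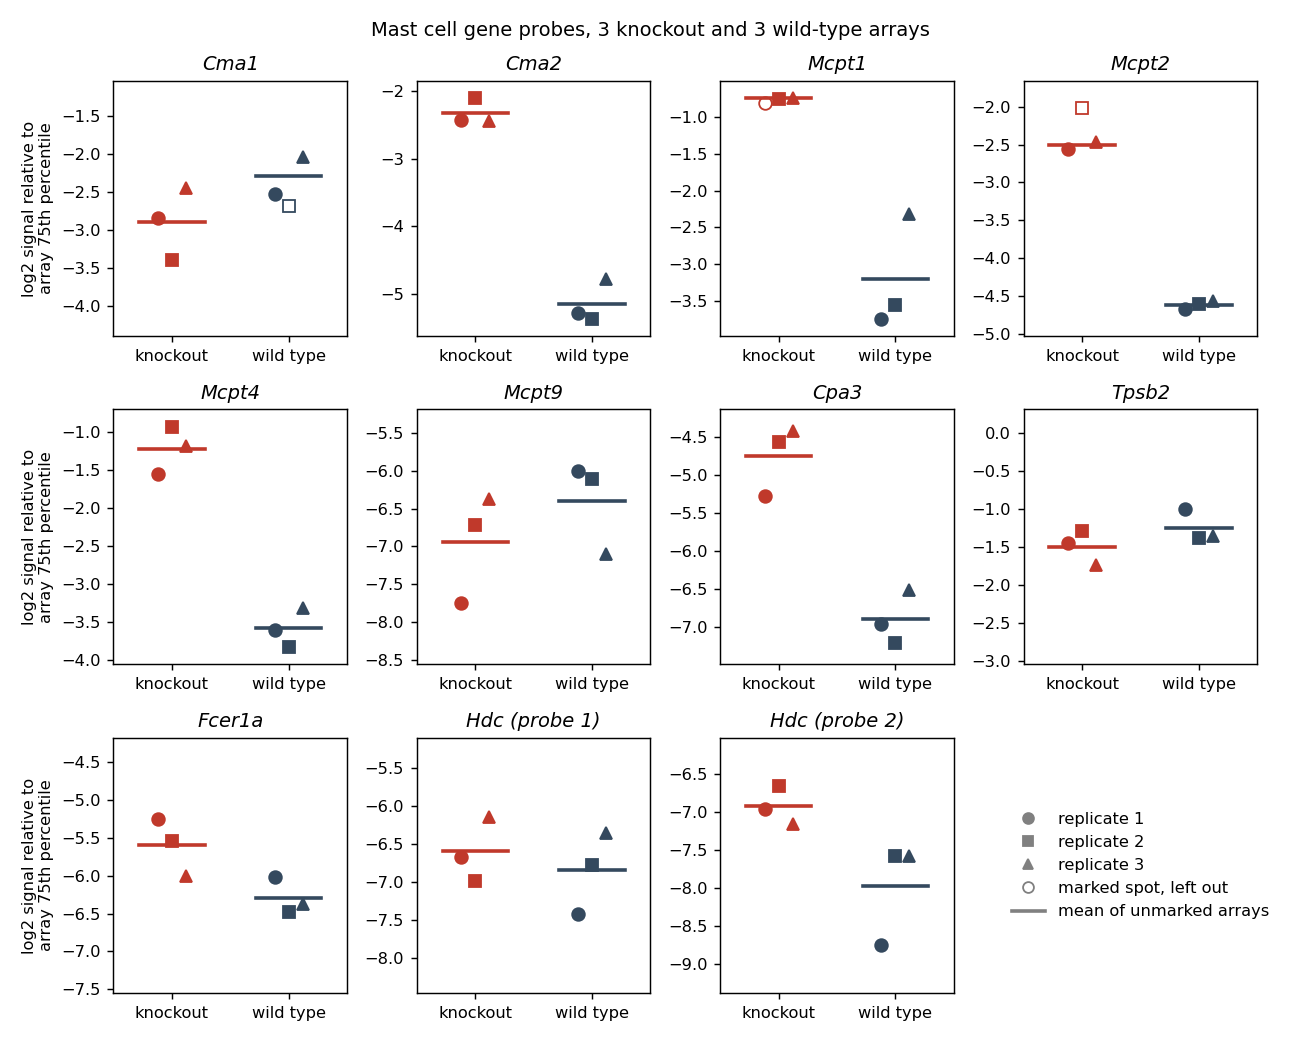
Log2 signal relative to the array's 75th percentile (y axis) of the 11 member probes on 3 knockout and 3 wild-type arrays; symbols mark replicates, open symbols are marked spots, which were left out, and lines are means of the unmarked arrays. Cma2, Mcpt1, Mcpt2, Mcpt4 and Cpa3 are separated by 2.10 to 2.82 log2 units, while Cma1, Mcpt9, Tpsb2 and the first Hdc probe overlap.

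Mcpt1 encodes mouse mast cell protease 1, the β-chymase of the gut lining. Its processed intensity was 2018, 1863 and 2050.2 on the 3 knockout arrays and 224, 264 and 673 on the 3 wild-type arrays. The knockout arrays agreed closely, whereas wild-type replicate 3 stood above the other two. The spot of knockout replicate 1 was marked by the scanner software and left out, which gave a log2 change of 2.46 ± 0.43 (SE, n = 2 and 3), or 2.44 with that spot kept.

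Mcpt2, a second protease of mucosal mast cells, had an intensity of 601, 769.9 and 620.4 on knockout arrays and 118, 128 and 142 on wild-type arrays. The groups were far apart and each was narrow. The spot of knockout replicate 2, the brightest, was marked and left out. The log2 change was 2.10 ± 0.13 (SE, n = 2 and 3), and 2.26 with the marked spot kept.

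Mcpt4, the main chymase of connective tissue mast cells in mice, had an intensity of 1210.0, 1634 and 1500.3 on knockout arrays and 247, 218 and 337 on wild-type arrays. Every knockout array was above every wild-type array. Its log2 signal averaged -1.22 ± 0.31 in knockout and -3.58 ± 0.26 in wild-type tissue (SD, n = 3 each), a log2 change of 2.36 ± 0.20 (SE, n = 3 and 3), or 5.13-fold.

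Cma2, a chymase gene placed between Cma1 and Mcpt1, had the largest change of the 10 genes. Its intensity was 658, 727 and 628 on knockout arrays and 77.2, 75.2 and 123 on wild-type arrays. Its log2 signal averaged -2.32 ± 0.19 in knockout and -5.14 ± 0.32 in wild-type tissue (SD, n = 3 each), a difference of 2.82 ± 0.19 (SE), or 7.04-fold.

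Cpa3, the carboxypeptidase packed with chymase in mast cell granules, was dim. Its intensity was 91.3, 132 and 160.5 on knockout arrays and 24.1, 21.0 and 36.9 on wild-type arrays. It was well above background on all 3 knockout arrays and on only 1 wild-type array, replicate 3. Its log2 change of 2.14 ± 0.28 (SE, n = 3 and 3) depended on the processing and was 0.90 with normexp. Normexp is a model-based background correction, run here on the median spot signal with an offset of 50, in place of the scanner's processed signal. These 3 changes were not tested apart.

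The other 2 proteases of the chymase group overlapped between the groups. Cma1, known as mouse mast cell protease 5, had an intensity of 492, 298 and 631 on knockout arrays and 521, 484 and 814 on wild-type arrays. The ranges overlapped, with knockout replicate 3 above wild-type replicate 1, and the log2 change was -0.60 ± 0.31 (SE, n = 3 and 2) without the marked spot of wild-type replicate 2. Mcpt9, a protease described in mast cells of the mouse uterus, was at 16.5, 29.6 and 41.4 on knockout arrays and 46.7, 45.1 and 24.4 on wild-type arrays. It was well above background on 1 knockout and 2 wild-type arrays, with a log2 change of -0.54 ± 0.42 (SE, n = 3 and 3).

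Tpsb2, the tryptase of connective tissue mast cells, had an intensity of 1296, 1274 and 1023 on knockout arrays and 1513, 1189 and 1312 on wild-type arrays. On the scaled log2 values the groups overlapped in a narrow stretch, with knockout replicate 2 above wild-type replicates 2 and 3, and the log2 change was -0.25 ± 0.17 (SE, n = 3 and 3). Hdc, the enzyme that makes histamine, was dim, with its first probe well above background on 1 knockout and 2 wild-type arrays. That probe was at 34.8, 24.7 and 48.3 on knockout arrays and at 17.5, 28.3 and 41.0 on wild-type arrays, a log2 change of 0.25 ± 0.32 (SE). The second Hdc probe, at 24.0 to 30.8 on knockout arrays and 6.99 to 17.5 on wild-type arrays, was well above background on 0 arrays of either group and gives no fold.

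The IgE receptor was read through its chains Fcer1a, Ms4a2 and Fcer1g. Fcer1g, from the list of other mast cell genes, was well above background on all 6 arrays. It overlapped between the groups, at a log2 change of 0.09 ± 0.22 (SE, n = 3 and 3). Fcer1a, the chain that binds IgE, had an intensity of 92.7, 66.9 and 53.2 on knockout arrays and 46.3, 34.9 and 40.5 on wild-type arrays. The groups did not overlap, with knockout replicate 3 close to wild-type replicate 1, and the log2 change was 0.69 ± 0.22 (SE, n = 3 and 3), or 0.17 with normexp. Ms4a2, which encodes the signalling β chain and is no member of the 10, has 2 probes. One was at 48.0, 57.3 and 76.4 on knockout arrays and at 8.22, 11.7 and 14.1 on wild-type arrays. It was well above background on 2 knockout and 0 wild-type arrays, so it missed the filter of 3 arrays. Set against the lowest signal well above background on each wild-type array, the knockout mean of this Ms4a2 probe was 2.24-fold higher. That level is no detection limit. On all 3 knockout arrays the probe lay above the lowest such signal of its array, yet only 2 were well above background. No lower bound on the fold is therefore drawn. The other Ms4a2 probe, at 6.60 to 14.9 on knockout arrays and 4.44 to 6.99 on wild-type arrays, was well above background on 0 arrays.

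Within each group the arrays differed. With marked spots included, wild-type replicate 3 was the highest of the wild-type arrays for 8 of the 11 probes. Among them were all 5 with the large differences. Knockout replicate 1 was the lowest knockout array for 5 of the 11, its marked Mcpt1 spot included. Leaving out wild-type replicate 3 gave log2 changes of 3.00 for Cma2 and 2.91 for Mcpt1. The count of member probes at least 2-fold higher without overlap was 5 with any single array left out. The share of all probes is not given for these fits, so nothing is read from the unchanged count.

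**Figure D2:**
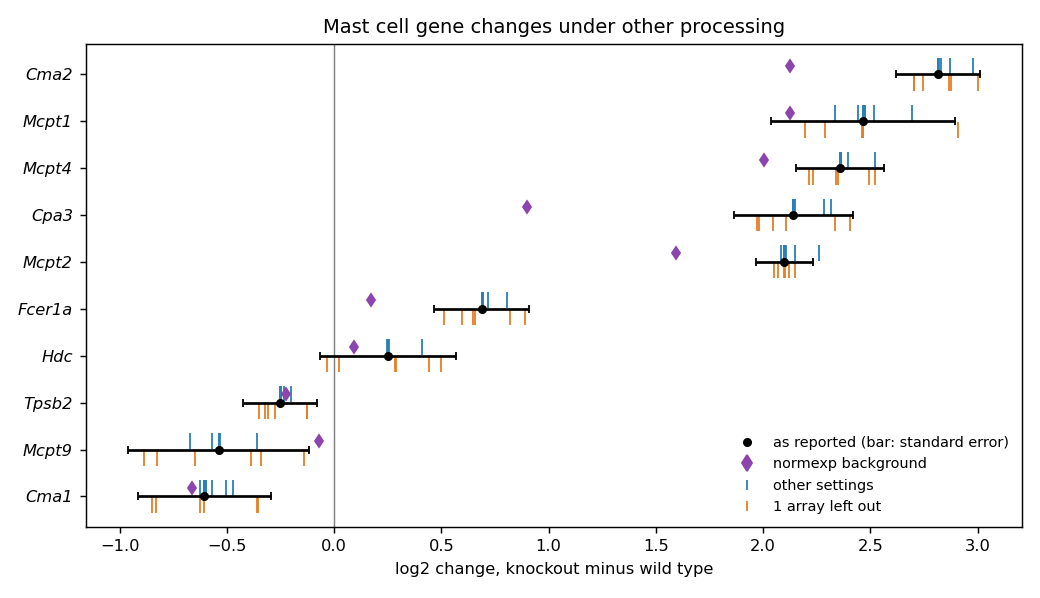
Log2 change, knockout minus wild type (x axis), of the 10 tested member probes as reported (black, with standard error), with normexp background correction (diamonds), under the other settings (upper ticks) and with 1 array left out (lower ticks). Normexp gives the smallest value for the 5 genes with the largest changes, down to 0.90 for Cpa3, and none of these 5 reaches 0.

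The position of the genes was compared next. In the RefSeq gene order of chromosome 14, Cma1, Cma2, Mcpt1, Mcpt2, Mcpt9 and Mcpt4 follow one another with 0 other protein-coding genes with a probe between them. Cma2, Mcpt1, Mcpt2 and Mcpt4 were thus interrupted by Mcpt9, and Cma1 lay at the edge. Of the 10 flanking genes, 5 on each side, 5 were tested and 0 were called in the limma fit, where 0.208% of all features were called. Ctsg, the cathepsin G gene beyond Mcpt4 and Mcpt8, was at a log2 change of 0.12 ± 0.17 (SE, n = 3 and 3, adjusted p = 0.846), and Nynrin, before Cma1, at -0.39 ± 0.37 (adjusted p = 0.753). Nfatc4, a transcription factor gene, had a log2 change of 0.11 ± 0.16, Cbln3 one of 0.02 ± 0.19 and Khnyn one of -0.0024 ± 0.17. Mcpt8, a basophil protease gene, and the granzyme genes Gzme and Gzmd were well above background on 0 arrays of either group, and Gzmg was so on 0 knockout and 2 wild-type arrays. The spots of Sdr39u1 were marked too often to be tested.

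**Figure D3:**
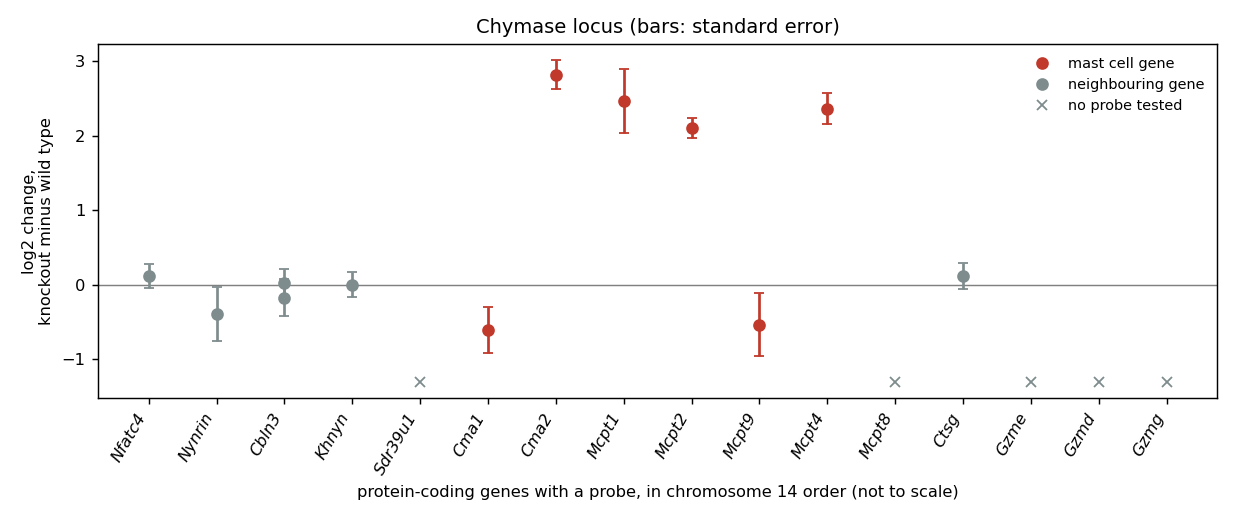
Log2 change, knockout minus wild type (y axis, bars are standard errors), of protein-coding genes with a probe in their order along chromosome 14 (x axis, not to scale); members are red, neighbours grey, and crosses are genes with no tested probe. Cma2, Mcpt1, Mcpt2 and Mcpt4 lie between 2.10 and 2.82, while Cma1, Mcpt9 and the neighbours lie between -0.60 and 0.12.

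Upstream sequences of 7 of the 10 genes were in the RefSeq promoter table (GRCm38.p6), and Cma2, Mcpt2 and Tpsb2 had no entry. Shown are the 250 bases before the annotated start of the 3 genes with large changes and of the 2 chromosome 14 genes that overlapped between groups. Capitals mark GATA motifs on either strand, spelled AGATAA or, with another end, AGATAG, and likewise TGATAA or, with another end, TGATAG. Capitals also mark TATAAA on the strand of the gene.
Mcpt1 (chr14:56017714-56017963, plus strand): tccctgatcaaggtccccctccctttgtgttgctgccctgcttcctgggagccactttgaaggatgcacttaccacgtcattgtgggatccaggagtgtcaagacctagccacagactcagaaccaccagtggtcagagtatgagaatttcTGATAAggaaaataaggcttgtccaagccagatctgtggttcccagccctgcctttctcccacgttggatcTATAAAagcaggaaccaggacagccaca
Mcpt4 (chr14:56062311-56062560, minus strand): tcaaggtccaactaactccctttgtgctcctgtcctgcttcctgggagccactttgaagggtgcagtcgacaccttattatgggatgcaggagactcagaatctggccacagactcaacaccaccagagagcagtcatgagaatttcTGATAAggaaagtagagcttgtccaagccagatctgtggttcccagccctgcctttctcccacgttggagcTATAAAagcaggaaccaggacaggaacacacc
Cpa3 (chr3:20242182-20242431, minus strand): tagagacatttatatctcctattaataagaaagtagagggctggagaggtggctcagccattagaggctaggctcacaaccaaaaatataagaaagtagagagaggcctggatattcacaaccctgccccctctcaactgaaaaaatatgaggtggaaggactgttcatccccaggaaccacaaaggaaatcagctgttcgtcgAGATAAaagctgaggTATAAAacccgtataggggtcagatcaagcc
Cma1 (chr14:55944676-55944925, minus strand): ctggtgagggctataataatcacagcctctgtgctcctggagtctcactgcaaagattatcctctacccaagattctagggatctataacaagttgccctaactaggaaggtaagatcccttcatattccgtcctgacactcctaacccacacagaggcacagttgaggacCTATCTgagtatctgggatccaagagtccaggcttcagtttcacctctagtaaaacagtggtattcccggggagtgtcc
Mcpt9 (chr14:56030496-56030745, minus strand): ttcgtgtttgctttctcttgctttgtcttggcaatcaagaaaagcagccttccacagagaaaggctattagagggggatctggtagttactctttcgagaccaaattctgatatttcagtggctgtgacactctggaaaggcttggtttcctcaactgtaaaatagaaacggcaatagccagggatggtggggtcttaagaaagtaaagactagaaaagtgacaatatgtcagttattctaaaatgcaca

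The Mcpt1 and Mcpt4 windows were 81.9% identical in a global alignment, against 51.3% for Mcpt1 with Cma1 and 48.5% for Mcpt1 with Mcpt9. GATA2 is a transcription factor that mast cells need. A GATA motif was found in 6 of the 7 windows and in 26.5% of the 32851 windows of the same length in the table. TATAAA was found in 4 of the 7 windows, those of Mcpt1, Mcpt4, Cpa3 and Fcer1a, and in 7.59% of all. In Mcpt1 and Mcpt4 the word TGATAA began 99 and 103 bases before the start, and TATAAA 28 and 32 bases before it. Among the 5 windows shown, that of Mcpt9 held neither motif, and that of Cma1 held a GATA motif without TATAAA. Of 2 further motifs searched on both strands, the RUNX words TGTGGT and also TGCGGT were found in 4 of the 7 windows and 18.6% of all, and the MITF word CACATG in 1 of the 7 and 12.3% of all. These matches describe the letters of the reference genome and were not tested against the signal.

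Among other genes of mast cells, none of those tested passed. The list held 27 genes, of which 26 had a probe and 16 were tested. In limma's fit, where 0.147% of all features were called higher and 0.0609% lower (0.208% together, adjusted p under 0.05), 0 of the 16 passed. At an unadjusted p under 0.05, 1 was higher and 0 lower, while 3.18% of all features were higher and 7.55% lower. The median log2 change of the 16 was 0.04, beside -0.06 over all 27916 features. Lat2, an adaptor protein of IgE receptor signalling, had the smallest p and was at 0.46 ± 0.13 (SE, n = 3 and 3, limma adjusted p = 0.320). Slc6a4, the serotonin transporter gene, was at -0.65 ± 0.28 (SE, n = 2 and 2). Slc18a2, the monoamine transporter that loads granules, was at -0.25 ± 0.15 (SE, n = 3 and 2), and Alox5, the enzyme that starts leukotriene synthesis, at -0.48 ± 0.30.

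Kit, the receptor for stem cell factor and the defining surface receptor of mast cells, could not enter the main fit because its spot was marked on 4 of the 6 arrays. Its intensity was 5316, 3668 and 5842 on knockout arrays and 2538, 3191 and 5090.0 on wild-type arrays, marked spots included. With marked spots kept its log2 change was 0.40 ± 0.25 (SE, limma adjusted p = 0.638). In the mouse colon Kit is also known from deep crypt secretory cells of the epithelium. Mrgprb1 and Mrgprb2, receptors of connective tissue mast cells, and Gata1 and Cyp11a1 were well above background on 0 arrays of either group.

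Signals that feed mast cells were examined as a list of 21 genes, of which 13 were tested and 0 passed in limma's fit. At an unadjusted p under 0.05, 0 were higher and 2 lower, beside 3.18% higher and 7.55% lower over all features, which lean to lower as well. Their median log2 change was -0.10, beside -0.06 over all features. Il13, a type 2 cytokine gene, was at -0.42 ± 0.15 (SE, n = 3 and 3, limma adjusted p = 0.397) and Il9r, the receptor for the mast cell growth factor IL-9, at -0.39 ± 0.15 (adjusted p = 0.425). Csf2rb, the shared receptor chain for IL-3, was at -0.29 ± 0.13 by its tested probe, and turned to 0.47 with the mean of its probes. Il25, a tuft cell cytokine gene, was at -0.24 ± 0.11. Kitl, which encodes stem cell factor, has 3 probes, all bright and marked too often for the main fit. With marked spots kept they gave log2 changes of 0.17, -0.23 and -0.26. Il3, Il4, Il9 and Il10 were well above background on 0 arrays of either group.

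Receptors, substrates, clearance enzymes and inhibitors of mast cell products formed a list of 19 genes, of which 13 were tested. F2r, the thrombin receptor gene, was the single gene of the 13 that passed, where 0.147% of all features were called higher. Its log2 change was 2.71 ± 0.23 (SE, n = 3 and 3, limma adjusted p = 0.00800), and the median of the 13 was -0.10. Because the list was chosen with earlier results of these data known, nothing is read from this call. The intensity of F2r was 901, 1099 and 1308 on knockout arrays and 162, 118 and 202 on wild-type arrays. The call for F2r was lost without knockout replicate 2 (adjusted p = 0.0578) and without wild-type replicate 1 (adjusted p = 0.0559). The receptor cleaved by tryptase, F2rl1, was at -0.04 ± 0.21 (adjusted p = 0.964). Among histamine genes, the receptors Hrh1 and Hrh4 were at 0.35 ± 0.18 and -0.23 ± 0.16. Mme, which encodes the peptidase neprilysin, was at -0.93 ± 0.49 and Agt, the angiotensinogen gene, at 0.20 ± 0.18.

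The other serine proteases around the chymase genes and the markers of basophils and eosinophils were mostly dim. Over all features, 0.208% passed in limma's fit, and at an unadjusted p under 0.05, 3.18% were higher and 7.55% lower. Of 9 locus proteases 3 were tested, and 0 passed or had an unadjusted p under 0.05. Gzmc was at 0.25 ± 0.35, Ctsg at 0.12 ± 0.17 and Gzmb, the cytotoxic granzyme of intraepithelial lymphocytes, at 0.13 ± 0.23 (SE, n = 3 and 3). Of 10 basophil and eosinophil genes 4 were tested, and 0 passed or had an unadjusted p under 0.05. Prg3 was at -0.20 ± 0.20, Il3ra at 0.12 ± 0.14, Il5ra at -0.08 ± 0.18 and Siglecf at -0.09 ± 0.37. The basophil gene Mcpt8 and the eosinophil genes Prg2 and Ccr3 were well above background on 0 arrays of either group.

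**Figure D4:**
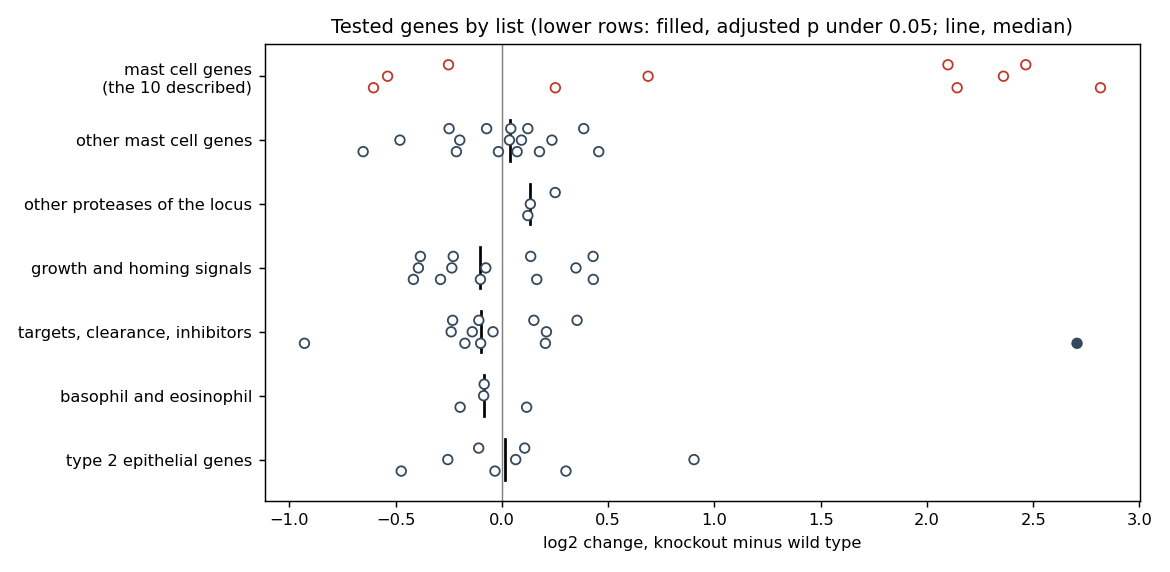
Log2 change, knockout minus wild type (x axis), of each tested gene by list; in the lower 6 lists filled points have an adjusted p under 0.05 and the vertical line is the median, while the 10 member genes (top, red) carry no test. F2r at 2.71 is the filled point, and the other mast cell genes lie between -0.65 and 0.46.

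Markers of other cells were summed per array, in multiples of the 75th percentile and with marked spots kept. T and NK cell markers (9 genes) summed to 3.71 to 6.79 on knockout arrays and 3.50 to 5.26 on wild-type arrays, and Trdc had no probe. Macrophage markers (8 genes) summed to 1.96 to 2.12 on knockout arrays and 1.93 to 2.04 on wild-type arrays, a sum carried mostly by the bright Csf1r. Among them the complement genes differed in sign, with C1qa at a log2 change of 0.78 ± 0.30, C1qb at -0.53 ± 0.13 and C1qc at -1.15 ± 0.44 (SE, n = 3 and 3). Of the 7 macrophage markers tested, 0 passed in limma's fit. At an unadjusted p under 0.05, 1 was higher and 2 lower, where 3.18% of all features were higher and 7.55% lower. Fibroblast markers (6 genes) summed to 0.520 to 1.52 on knockout arrays and 0.609 to 1.24 on wild-type arrays. Endothelial markers (5 genes) summed to 0.122 to 0.149 on knockout and 0.119 to 0.183 on wild-type arrays. Of these, Cdh5, Emcn, Kdr and Tek were well above background on 0 arrays. B and plasma cell markers (6 genes) did not overlap, at 0.196 to 0.289 on knockout and 0.159 to 0.184 on wild-type arrays. Of the 6, only Jchain, the joining chain of secreted antibodies, was without overlap by itself, where 5.75% of all probes lay wholly above wild type. Its log2 change was 1.20 ± 0.24 (SE, n = 3 and 3, limma adjusted p = 0.191). The neutrophil sum (6 genes), at 9.86 to 9.95 on knockout and 10.3 to 12.1 on wild-type arrays, was nearly all Csf3r, whose log2 change was -0.19 ± 0.12 (SE, n = 3 and 3, limma adjusted p = 0.611). Cxcr2 and Mpo overlapped between the groups, S100a9 was well above background on 1 array, and Elane and S100a8 were so on 0 arrays. The part of other cells in the mast cell differences was not tested.

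The genes whose profile was most like those of Cma2 and Cpa3 were found among 11016 features with a gene symbol and all 6 arrays unmarked. Symbols that are Gm, Riken, LOC or clone names were left out, so the ranks hold among the rest. Likeness was the root mean square difference between profiles over the 6 arrays, each centred on its own mean. For Cma2 the closest were F2r (0.23 log2 units), Mcpt4 (0.26), Zfp600 (0.33), Afm (0.33) and Zfp963 (0.36), and Cpa3 ranked 6. For Cpa3 the closest were Mcpt4 (0.20), Lrrtm1 (0.23), Aox2 (0.30), F2r (0.31) and Mro (0.32), and Cma2 ranked 10. Mcpt1 and Mcpt2 had a marked spot and were not compared. Fcer1a ranked 245 for Cma2 and 449 for Cpa3, while Tpsb2 ranked 8897 and 9060. Genes found this way share the knockout difference of Cma2 or Cpa3 by construction, so no test is drawn from this ranking. The list that holds F2r was itself chosen with earlier results of these data known.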

How the data were processed

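RNA from colonic epithelium of 3 miR-31 knockout and 3 wild-type mice was measured on 6 arrays, 1 per mouse. The deposited scanner files give intensity per spot from Agilent Feature Extraction 11.5.1.1, per the file headers, while the submitters' processing notes name version 10.7. Per the file headers, the software had subtracted background from this intensity and detrended it, and nothing was scaled across arrays. The authors' series table was checked against it, and 99.7% of entries differed by less than 0.01 on the log2 scale. Control spots were left out, and 0 non-control spots were saturated. Between 4.95% and 17.3% of spots per array, marked as non-uniform or as population outliers, were left out of the fits and group means. The marker sums and the ranks of arrays within a group kept them.

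Log2 intensity minus the 75th percentile of each array was averaged over the spots of a probe. A probe was compared when well above background, as the scanner software marks it, on at least 3 of 6 arrays, with at least 2 unmarked arrays per group. Gene names came from RefSeq accessions (GRCm38.p6 table, 33767 of 56605 probes matched). The array design names another build, mm9, so the table gave names and gene order, and coordinates are printed for its promoter sequences alone. The genotype contrast was fitted in limma 3.58.1 under R 4.3.3 (lmFit and eBayes, two-sided). The brightest probe stood for each gene over 27916 features, and Benjamini-Hochberg adjustment was applied at 0.05. Errors of changes are limma standard errors, for member probes and for flanking genes from a fit over all 33231 probes. The n after a change gives knockout and wild-type arrays. The fit was tested on simulated data. Promoters were aligned with Biopython 1.88.

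The member genes and all lists were chosen with earlier results of these data known. Besides the members, the text names the 4 genes of each list with the smallest p, a fixed set of Kit, Ms4a2, Tpsab1, Mcpt8, Ctsg, Gzmb and Kitl where a probe exists, the 5 nearest profiles to Cma2 and Cpa3, and 5 flanking genes per side. F2rl1, Agt, Fcer1g and the genes named only as not well above background or as markers were named after their values were seen. The files hold no mean spot signal, so the planned normexp correction (offset 50) used the median spot signal, a choice made after seeing the files. Each array has its own animal number in the labels and was taken as a separate mouse, although the meaning of the numbers is not given. The p-values compare the genotype difference with the spread between arrays of a group. They cannot tell genotype from slide row. The number of arrays limits the precision.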

Additional observations from a re-analysis of the deposited data

How the results depend on the processing

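The 5 member probes at least 2-fold higher without overlap numbered 4 with normexp and with all 6 arrays required above background. They numbered 6 without the dim-probe filter, where the second Hdc probe, well above background on 0 arrays, was added. The count was 5 under the other 9 alternatives and with each array left out. The share of all probes is not given for these settings, so nothing is read from the counts. Normexp lowered the log2 change to 2.13 for Cma2 and Mcpt1 and 1.59 for Mcpt2, and to 0.90 for Cpa3 and 0.17 for Fcer1a. Background model, offset and spot measure changed together in this setting, and the cause was not tested. Hdc ranged from -0.04 to 0.50 with 1 array left out.

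The 58 called features became 100 with normexp, 35 without the dim-probe filter, 33 with all 6 arrays above background, 106 with trend and robust variance, 105 with array weights, and 22 to 116 with 1 array left out. It was 45, 30 and 116 without knockout replicates 1, 2 and 3, and 22, 28 and 38 without wild-type replicates 1, 2 and 3. The single called gene of the related lists, F2r, was called under all 12 alternatives, and 0 to 1 genes were called with 1 array left out. Zfp600 was at a log2 change of 2.95 by a probe unmarked on all 6 arrays, and at 3.78 with the mean of its probes. With marked spots kept it was at 0.32. The brightest probe is chosen anew in each setting, so another probe of Zfp600 can stand for the gene there. Which probe gave 0.32 was not checked. Genes that did not pass turned direction as follows. Khnyn was at 0.020 with normexp, 0.0011 with the series table, 0.16 with marked spots kept, 0.011 with array weights and 0.039 with the animal number as a block. The mean of a gene's probes gave 0.47 for Csf2rb, 0.0037 for Siglecf and -0.078 for Cbln3, and array weights gave 0.19 for Siglecf. With 1 array left out, Khnyn ranged from -0.12 to 0.062, Cbln3 from -0.094 to 0.22, Siglecf from -0.35 to 0.35, Nynrin from -0.76 to 0.040, Gzmc from -0.12 to 0.59, Gzmb from -0.090 to 0.26, Ctsg from -0.0052 to 0.28, Prg3 from -0.31 to 0.020 and Chil4 from -0.071 to 0.57.

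The replicate numbers follow accession order and pair no samples. A fit with the leading digits of the animal number as a block, whose meaning the labels do not give, called 62 features. Cpa3, Mcpt9, Fcer1a, Hdc and Ms4a2 lay near background, which limits their folds.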

Other observations

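Epithelial genes known to respond in type 2 immunity, the setting in which mucosal mast cells expand, were listed as 13 genes, of which 8 were tested and 0 passed in limma's fit. At an unadjusted p under 0.05, 1 was higher and 1 lower, where 3.18% of all features were higher and 7.55% lower. The median log2 change was 0.02, beside -0.06 over all features. Itln1, which encodes the lectin intelectin, was at 28631, 26350.0 and 28707 on knockout arrays and 11332, 11969 and 20187 on wild-type arrays. The groups did not overlap, and its log2 change was 0.90 ± 0.20 (SE, n = 3 and 3, limma adjusted p = 0.212). Wild-type replicate 3 was the highest wild-type array for Itln1, as for Cma2, Mcpt1, Mcpt2, Mcpt4 and Cpa3. Dclk1, a tuft cell gene, was at -0.47 ± 0.16 (adjusted p = 0.368), Pou2f3, the tuft cell transcription factor gene, at -0.25 ± 0.26 and Chil4, a chitinase-like protein gene, at 0.30 ± 0.35. Retnlb, the goblet cell product resistin-like β, was at 0.11 ± 0.21 (SE, n = 3 and 2) and was named after its value was seen.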
